A study of Mus musculus with 45 samples.

Results

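Amino acids cross the membranes of hepatocytes and other liver cells on carriers of several solute carrier families, and the transporter genes of 7 of these families were followed here through the first day of acetaminophen (APAP) injury in mouse liver. The set was defined by gene symbol as every gene of the Slc1, Slc3, Slc6, Slc7, Slc36, Slc38 and Slc43 families that the array measures, apart from 2 genes of these families, which left 59 of 18180 genes. The symbols do not select for cargo alone. Of the 59 genes, 10 Slc6 genes encode carriers of monoamines, GABA, taurine, betaine or creatine, or of unknown cargo, Slc43a3 carries purine nucleobases, and 3 opposite-strand genes (Slc6a19os, Slc7a6os and Slc36a1os) are named after a transporter and are not known to be carriers.

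Livers of male C57Bl/6J mice, 8 weeks old and fasted for 16 h, were measured in 9 groups of 5 mice. APAP mice received 300 mg/kg in 1% hydroxyethylcellulose by oral gavage, and vehicle mice 1% hydroxyethylcellulose alone. Mice of both treatments were killed 3, 6, 9 or 24 h later. Untreated mice of the same strain, fasted alike, were killed at 0 h, and food was given back to the dosed mice after the fast. Each mouse gave 1 Affymetrix mouse expression array, and values are RMA log2 values, where 1 unit is a 2-fold difference.

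As background, light chains of the Slc7 family reach the cell surface only when paired with a heavy chain, Slc3a1 or Slc3a2, while the cationic carriers of the same family work alone. Sodium-coupled carriers of the Slc38 family load hepatocytes with glutamine, alanine and other neutral amino acids, and Slc36 carriers move small amino acids with protons, in part out of lysosomes. APAP is oxidised in hepatocytes to a quinone imine that consumes glutathione, a peptide made of glutamate, cysteine and glycine, and amino acid shortage or endoplasmic reticulum stress raises the transcription factor ATF4, which acts on genes of amino acid synthesis and uptake.

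Arrays resembled each other closely, with correlations between 0.9608 and 0.9982 over all genes and no identical pair. Markers of hepatocytes (Alb, Apoa1, Ttr, Serpina1a and Cyp2e1) averaged between 14.43 and 14.64 on every array, near the top of the scale, as the label of liver requires, and none of the 5 was called between APAP and vehicle livers at any time. At 24 h the markers called higher were 5 of 8 for infiltrating monocytes and macrophages, 2 of 6 for neutrophils, 1 of 6 for Kupffer cells, 1 of 6 for cholangiocytes, 1 of 7 for sinusoidal endothelial cells and 1 of 7 for stellate cells (with 1 of 7 lower), and none of 8 for T, B and NK cells. Of the 59 genes, 14 lay below the lower quartile of all genes on all 45 arrays, and none of those 14 was called in any comparison made here. RMA values depend on the probes of each gene, so a brighter gene is not one with more RNA, and levels were compared between mice.

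Between APAP and vehicle livers, 7 of the 59 genes passed both the test and a limit on the size of the change at 1 time or more. A gene was called when the limma test gave an adjusted p under 0.05 over all 18180 genes and the groups differed by at least 1.5-fold. At each of the 4 times 2 genes were called higher and 1 lower in APAP than in vehicle livers, 3.39% and 1.69% of the 59. Among all genes, the shares called higher were 1.68%, 2.29%, 2.49% and 2.86% and the shares called lower 2.34%, 3.03%, 2.05% and 1.82%, in order of time, so the shares of the transporters were near those of all genes. Medians over the 59 genes of the log2 fold change, in the same order, were 0.05, 0.04, -0.03 and -0.07, beside 0.02, 0.01, -0.03 and -0.05 for all genes. At an unadjusted p under 0.05, without a minimum change, 15, 22, 20 and 25 of the 59 passed, where the shares of all genes were 34.6%, 37.6%, 38.0% and 44.8%. The 7 genes were the neutral carrier Slc38a2, the cationic carrier Slc7a2, the heavy chain Slc3a2, the light chain Slc7a8, the proton-coupled carrier Slc36a1, the glycine carrier Slc6a9 and the betaine carrier Slc6a12.

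**Figure D1:**
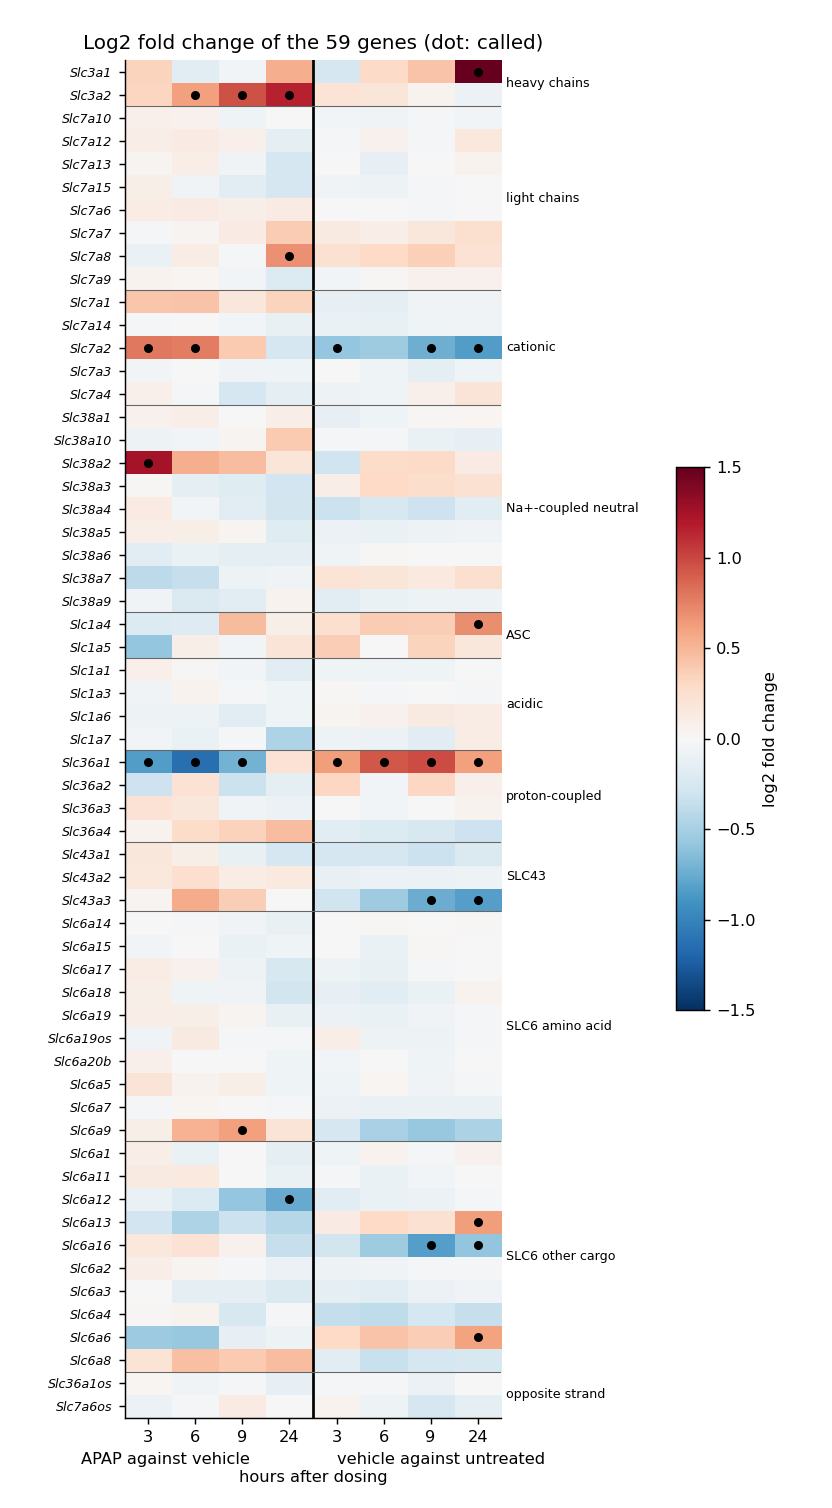
Heat map of the log2 fold change of each of the 59 genes (rows, grouped by role) by hours after dosing, APAP against vehicle on the left and vehicle against untreated on the right; a black dot marks a called gene. Each of the 4 APAP columns holds 3 dots, and Slc36a1 is opposite in sign in the APAP and vehicle columns at 3, 6 and 9 h.

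Slc38a2, which encodes the sodium-coupled neutral amino acid transporter SNAT2, showed the largest increase. At 3 h its log2 values were 12.20, 11.41, 12.15, 12.01 and 11.97 in APAP livers and 10.85, 10.83, 10.81, 10.48 and 10.50 in vehicle livers. The lowest APAP liver lay above the highest vehicle liver, and the log2 fold change was 1.25 (SE 0.14, limma adjusted p = 4.09e-05), a 2.38-fold higher value. In whole liver, more RNA per cell and more cells that express a gene cannot be told apart, here and in every result that follows. At 6 h APAP livers ranged from 11.47 to 11.97 and vehicle livers from 10.86 to 11.84. The groups overlapped through vehicle replicate 3, and the difference of 0.54 (SE 0.16, adjusted p = 0.0274) stayed under 1.5-fold. Without that vehicle mouse it was 0.68 and without APAP replicate 2 it was 0.63, both called. Differences were 0.46 at 9 h (SE 0.11, adjusted p = 0.00825) and 0.18 at 24 h (SE 0.13, adjusted p = 0.292), neither called, and the APAP effect was 1.07 lower at 24 h than at 3 h on the log2 scale (SE 0.21, adjusted p = 0.000202 for the difference of the effects, n = 5 mice in each of 4 groups).

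None of the other 8 measured Slc38 genes was called at any time, and they include the genes with the brightest probes of the set, Slc38a3 (SNAT3, a glutamine carrier of hepatocytes) and Slc38a4 (SNAT4, which is also prominent in liver). Slc38a3 averaged 13.34 ± 0.05 in APAP and 13.33 ± 0.08 in vehicle livers at 3 h (SD, n = 5 each), and its difference of 0.02 had a 95% interval from -0.10 to 0.13. At 24 h it averaged 13.16 ± 0.35 in APAP and 13.45 ± 0.07 in vehicle livers, a difference of -0.29 with an interval from -0.60 to 0.02 (adjusted p = 0.131). Slc38a4 averaged 12.98 ± 0.27 in APAP and 13.26 ± 0.06 in vehicle livers at 24 h, a difference of -0.27 (interval from -0.52 to -0.03, adjusted p = 0.0847). In both genes the APAP mice spread several times more widely than the vehicle mice at that time. Slc38a7, a glutamine carrier of lysosomes, was lower by less than 1.5-fold at 3 h (-0.39, adjusted p = 0.000323) and 6 h (-0.35, adjusted p = 0.00375), and Slc38a10 was higher at 24 h (0.40, adjusted p = 0.00509). Slc38a6, whose cargo is less well known, differed by -0.15 to -0.10 over the 4 times, with adjusted p from 0.159 to 0.214. Slc38a1, which lies beside Slc38a2 and Slc38a4 on chromosome 15, differed by 0.00 to 0.10.

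Slc7a2, the cationic transporter CAT2 that carries arginine, lysine and ornithine, was higher in APAP livers at 3 and 6 h. Its values at 3 h were 11.96, 11.62, 11.86, 11.93 and 11.74 in APAP livers and 11.07, 10.88, 11.10, 11.002 and 11.14 in vehicle livers. At 6 h they were 11.95, 11.68, 11.70, 11.71 and 12.26 in APAP livers and 10.99, 10.82, 11.56, 11.18 and 10.89 in vehicle livers. The groups did not overlap at either time, and the differences were 0.79 (SE 0.07, adjusted p = 1.15e-05) and 0.77 (SE 0.15, adjusted p = 0.003). Untreated livers, at 11.49, 11.52, 11.56, 11.91 and 11.62, overlapped with the APAP livers and lay above all vehicle livers of 3 h. Against untreated livers, vehicle livers were lower by 0.59 at 3 h (SE 0.08, adjusted p = 0.000408), by 0.73 at 9 h (SE 0.12, adjusted p = 0.00086) and by 0.83 at 24 h (SE 0.10, adjusted p = 5.13e-05), and the 6 h difference of -0.53 was not called. Set against untreated livers, APAP livers differed by 0.20 (adjusted p = 0.146) at 3 h and by 0.24 (adjusted p = 0.185) at 6 h, and at 24 h they were lower by 1.08 (SE 0.18, adjusted p = 0.000918). At 24 h APAP livers had 10.17, 11.24, 10.47, 10.27 and 10.55, against 10.51, 11.04, 10.87, 10.86 and 10.66 in vehicle livers. These overlapped (difference -0.25, adjusted p = 0.3), and the APAP effect was 1.04 lower at 24 h than at 3 h (SE 0.22, adjusted p = 0.000456). Slc7a1, the more widely expressed cationic carrier CAT1, was higher by less than 1.5-fold at 3 h (0.42, adjusted p = 0.0002), 6 h (0.43, adjusted p = 0.00314) and 24 h (0.34, adjusted p = 0.0206), and the remaining 3 cationic members (Slc7a3, Slc7a4 and Slc7a14) were not called.

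**Figure D2:**
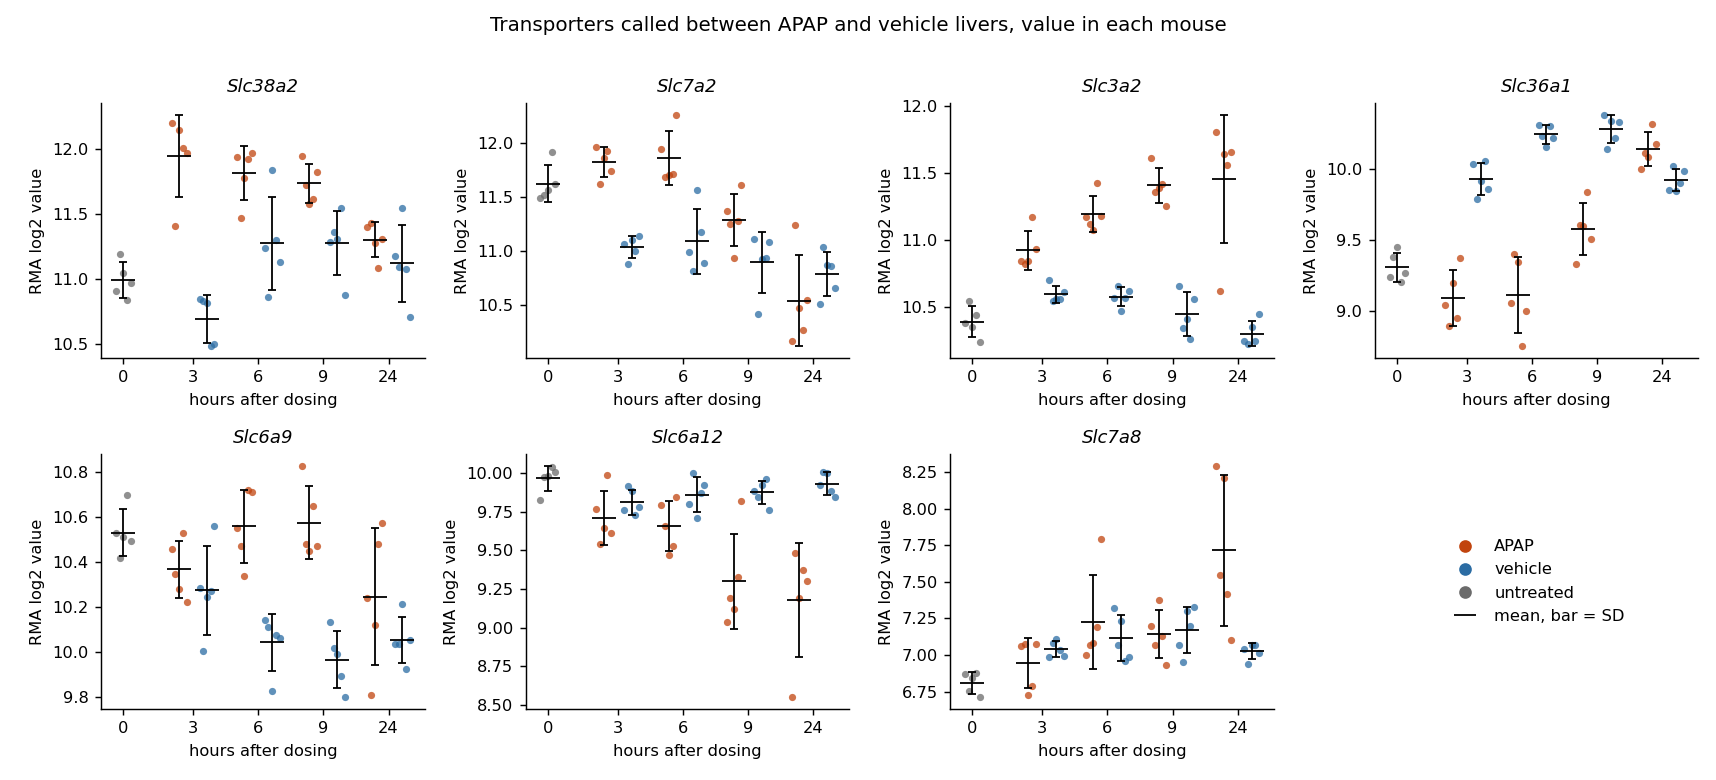
RMA log2 value of the 7 genes called between APAP and vehicle livers in each mouse (points), by hours after dosing, with untreated mice at 0 h, APAP to the left of vehicle at each later time, and the group mean and SD as bars (n = 5). Slc38a2 is highest in APAP livers at 3 h and Slc3a2 at 24 h, where 1 of 5 APAP mice stands apart at 10.62.

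Slc3a2, the 4F2 heavy chain that escorts Slc7 light chains to the cell surface, was higher in APAP livers by 0.62 at 6 h (SE 0.07, adjusted p = 7.81e-05), by 0.96 at 9 h (SE 0.08, adjusted p = 1.1e-05) and by 1.16 at 24 h (SE 0.19, adjusted p = 0.00222). Values at 9 h were 11.61, 11.36, 11.39, 11.42 and 11.26 in APAP livers and 10.66, 10.35, 10.41, 10.26 and 10.56 in vehicle livers. At 24 h they were 11.81, 10.62, 11.64, 11.56 and 11.66 in APAP livers and 10.25, 10.23, 10.35, 10.24 and 10.45 in vehicle livers. The groups did not overlap at any of the 4 times, and at 24 h APAP replicate 2 stood about 1 unit below its group. Without that mouse the 24 h difference was 1.37, and without APAP replicate 4 the 6 h difference was 0.56, below 1.5-fold. At 3 h the difference was 0.33 (SE 0.07, adjusted p = 0.00459), not called, and the effect was 0.83 greater at 24 h than at 3 h (SE 0.17, adjusted p = 0.000375). Vehicle and untreated livers differed little in this gene, by 0.20, 0.19, 0.06 and -0.09 in order of time, none of them called. Set against untreated livers, APAP livers were higher by 0.80, 1.01 and 1.07 at 6, 9 and 24 h, all called.

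Of the 8 light chains in the set, 1 was called. Slc7a8 (LAT2), a carrier of neutral amino acids that pairs with Slc3a2, had values of 8.29, 7.55, 8.21, 7.42 and 7.10 in APAP livers at 24 h, against 7.04, 6.94, 7.07, 7.07 and 7.01 in vehicle livers. The groups did not overlap, but APAP replicates 1 and 3 lay more than 0.6 above the other APAP mice. The difference was 0.69 (SE 0.20, adjusted p = 0.0276), and the call ended when any of 6 single mice was left out: APAP replicates 1 (0.54, adjusted p = 0.0423) and 3 (0.56, adjusted p = 0.0636) and vehicle replicates 1, 2, 4 and 5 (0.67 to 0.70, adjusted p = 0.0503 to 0.0565). With APAP replicates 1 and 3 left out together it was 0.33 (adjusted p = 0.0361). The same 2 mice had the highest mean levels of the markers of infiltrating monocytes and macrophages, 10.08 and 10.23, against 9.08 to 9.29 in the other 3 APAP mice and 7.70 to 7.87 in vehicle mice at 24 h. They were also highest for neutrophil markers, at 9.33 and 9.53, against 7.78 to 8.12 in the other 3 APAP mice and 7.41 to 7.78 in vehicle mice. The markers called higher at 24 h were Ccr2, Cd68, Chil3, Gpnmb and Lgals3 of the macrophage list and S100a8 and S100a9 of the neutrophil list. Of the other lists, the same mice were highest for cholangiocyte markers (7.75 and 7.40, against 7.13 to 7.21 in the other APAP mice and 7.09 to 7.19 in vehicle mice) and for sinusoidal endothelial markers (9.83 and 9.50, against 9.03 to 9.47 and 9.14 to 9.21). They were lowest for hepatocyte markers, at 14.43 and 14.46, against 14.51 to 14.53 in the other APAP mice and 14.59 to 14.63 in vehicle mice. For T, B and NK cell markers they were also lowest, at 6.53 and 6.57, against 6.60 to 6.81 in the other APAP mice. They were not the highest pair for Kupffer markers (10.01 and 10.47, with replicate 2 at 10.05) or stellate markers (9.003 and 8.78, with replicate 2 at 9.008). The cholangiocyte and macrophage lists share Spp1. APAP replicates 1 and 3 were also the highest APAP mice at 24 h for some other members. These include Slc7a7 (8.13 and 8.25), Slc38a10 (11.004 and 11.06), Slc36a4 (8.84 and 8.62) and Slc7a1 (8.19 and 7.90). They were not the highest pair for Slc3a2 or Slc36a1. The part of the cells with these markers in the change of Slc7a8 or of these other genes was not tested. Slc7a7 (y+LAT1), another partner of Slc3a2, was higher by 0.38 at 24 h (adjusted p = 0.0217), below 1.5-fold, and Slc7a6 differed by 0.13 or less in size at every time.

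**Figure D3:**
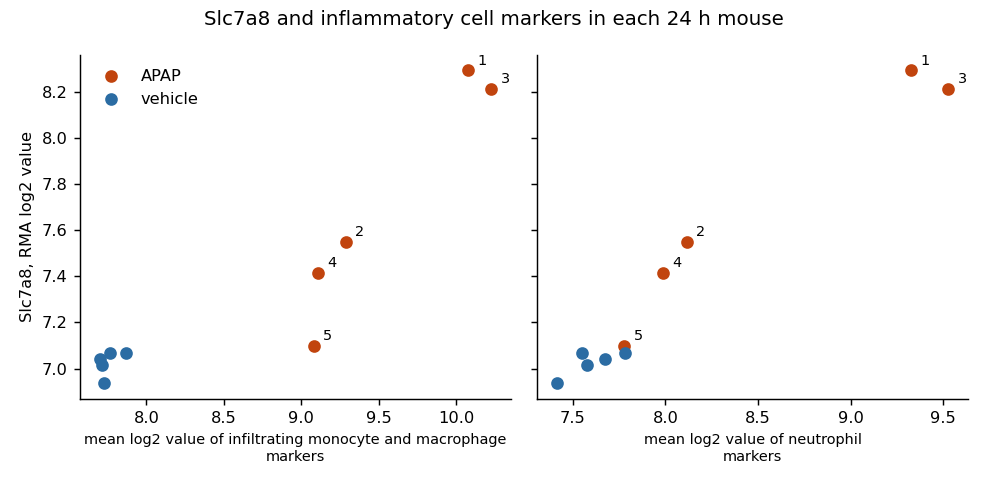
Slc7a8 (vertical axis, RMA log2 value) in each mouse at 24 h against the mean log2 value of 8 infiltrating monocyte and macrophage markers (left) or 6 neutrophil markers (right); APAP mice carry their replicate number. APAP replicates 1 and 3, at 8.29 and 8.21 for Slc7a8, are the highest in both marker lists.

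Slc36a1 (PAT1), which exports small neutral amino acids from lysosomes with protons, was called between APAP and vehicle livers at 3 of the 4 times, and between vehicle and untreated livers at all 4. At 3 h its values were 9.05, 8.90, 9.20, 8.95 and 9.38 in APAP livers and 10.04, 9.79, 9.92, 10.06 and 9.86 in vehicle livers. At 6 h they were 9.06, 9.41, 9.35, 8.75 and 9.00 in APAP livers and 10.32, 10.23, 10.16, 10.30 and 10.22 in vehicle livers. At 9 h APAP livers had 9.33, 9.61, 9.60, 9.84 and 9.51 and vehicle livers 10.38, 10.14, 10.34, 10.22 and 10.34. At none of these times did the groups overlap, and the differences were -0.84 (SE 0.09, adjusted p = 3.65e-05), -1.13 (SE 0.11, adjusted p = 4.11e-05) and -0.71 (SE 0.08, adjusted p = 9.78e-05). With any 1 mouse left out they ranged from -0.91 to -0.79, from -1.21 to -1.04 and from -0.77 to -0.64. Untreated livers had 9.24, 9.38, 9.45, 9.21 and 9.27, below all 20 vehicle livers, and vehicle livers exceeded them by 0.62, 0.94, 0.98 and 0.61 at 3, 6, 9 and 24 h (SE 0.06 to 0.07, adjusted p from 5.92e-07 to 8.31e-05). With array weights the 24 h difference was 0.57 and was not called. Against untreated livers, APAP livers differed by -0.22 (adjusted p = 0.12) at 3 h, by -0.20 (adjusted p = 0.255) at 6 h, by 0.27 at 9 h (adjusted p = 0.0273, below 1.5-fold) and by 0.83 at 24 h (adjusted p = 1.2e-05, called). At 24 h APAP livers, at 10.003, 10.12, 10.09, 10.32 and 10.18, were 0.22 above vehicle livers, at 9.86, 10.03, 9.85, 9.90 and 9.99, and the effect of APAP was 1.06 greater at 24 h than at 3 h (SE 0.13, adjusted p = 2.68e-07) and 0.92 greater than at 9 h (SE 0.13, adjusted p = 1.03e-05). Among the other 3 members of the family, Slc36a4 was higher by less than 1.5-fold at 9 h (0.34, adjusted p = 0.00803) and 24 h (0.46, adjusted p = 0.00773), and none was called.

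Among the Slc6 genes, 2 were called. Slc6a9 (GlyT1), which carries glycine, had values of 10.83, 10.48, 10.45, 10.65 and 10.47 in APAP livers at 9 h and 10.13, 10.02, 9.99, 9.89 and 9.80 in vehicle livers. The groups did not overlap and differed by 0.61 (SE 0.08, adjusted p = 0.000227), just past 1.5-fold, and the difference was 0.55 without APAP replicate 1 and 0.57 without vehicle replicate 5, neither of them called. Untreated livers had 10.53, 10.42, 10.51, 10.70 and 10.49, overlapping with the APAP livers, which differed from them by 0.04 (adjusted p = 0.691). Vehicle livers were lower than untreated livers by 0.56 at 9 h (SE 0.07, adjusted p = 7.79e-05), below 1.5-fold.

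Slc6a12 (BGT1), a betaine and GABA carrier, was lower late. At 24 h APAP livers had 8.55, 9.48, 9.19, 9.37 and 9.30, and vehicle livers 9.92, 10.01, 10.003, 9.89 and 9.84. All 5 APAP mice lay below all vehicle mice, and the difference was -0.75 (SE 0.15, adjusted p = 0.00524). It was -0.60 (called) without APAP replicate 1, the lowest mouse, and -0.55 (not called) without replicates 1 and 3. These 2 mice, the lowest for Slc6a12, are the ones with the highest macrophage and neutrophil marker levels given above, whose part in this change was not tested. At 9 h the difference was -0.58 (SE 0.12, adjusted p = 0.00365), just short of 1.5-fold, with APAP replicate 5 at 9.82 among the vehicle livers, and -0.71 without that mouse. It was also called at 9 h without vehicle replicate 2 (-0.59) or 5 (-0.61). Vehicle and untreated livers differed by 0.15 or less in size, and APAP livers were below untreated livers by 0.67 at 9 h and 0.79 at 24 h, both called. The APAP effect was 0.65 lower at 24 h than at 3 h (SE 0.17, adjusted p = 0.00337), which without APAP 24 h replicate 1 was -0.49 and without APAP 3 h replicate 4 was -0.58, neither called. Some other Slc6 genes passed the test with changes below 1.5-fold. The taurine carrier Slc6a6 was lower by 0.55 at 3 h (SE 0.05, adjusted p = 1.89e-05) and by 0.57 at 6 h (SE 0.11, adjusted p = 0.00253), with no overlap at either time. Without APAP replicate 2 or 3 or vehicle replicate 5 the 6 h difference was -0.64, -0.62 or -0.60, each called. The creatine carrier Slc6a8 was higher by 0.45 at 6 h (SE 0.06, adjusted p = 0.000298). Slc6a13 (GAT2), a carrier of GABA and taurine, was lower by 0.46 at 6 h (SE 0.10, adjusted p = 0.00477) and by 0.42 at 24 h (SE 0.12, adjusted p = 0.0221), and at both times all 5 APAP mice lay below all vehicle mice.

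Members that were not called between APAP and vehicle livers numbered 52, and 45 of the 59 were called in no comparison. Counts over several comparisons were not made for all genes, so these numbers describe the set alone. In these 45 genes the largest APAP effect in either direction at any time had a median size of 0.20 and reached at most 0.47. By role, the called members were 1 of 2 heavy chains, 1 of 8 light chains, 1 of 5 cationic carriers, 1 of 9 sodium-coupled neutral carriers, 1 of 4 proton-coupled carriers, 1 of 10 Slc6 genes of amino acid carriers (with Slc6a19os counted) and 1 of 10 other Slc6 carriers, and none of the 4 carriers of acidic amino acids, the 2 ASC exchangers or the 3 Slc43 genes.

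Whether the APAP effect differed between times was tested directly. For 24 h against 3 h, the later effect was higher in 4 of the 59 genes and lower in 3, against 6.03% and 2.21% of all genes. For 24 h against 9 h it was higher in 2 genes and lower in none by limma, against 1.74% and 1.24% of all genes, and 17 of the 59 had an unadjusted p under 0.05, as did 26.5% of all genes. Higher at 24 h than at 3 h were Slc36a1, Slc3a2, Slc7a8 (0.78, SE 0.21, adjusted p = 0.00399) and Slc1a5, and lower were Slc38a2, Slc7a2 and Slc6a12. Slc36a1 and Slc7a8 (0.72, SE 0.21, adjusted p = 0.0204) were higher at 24 h than at 9 h. The second call for Slc7a8 ended without APAP 24 h replicate 1 (0.57) or 3 (0.59), and with both left out neither call held (0.42 and 0.36). Slc7a2, at -0.64 between 24 h and 9 h (adjusted p = 0.0503), was called when any of 8 single mice was left out, with values from -0.82 to -0.64. These were the APAP mice numbered 5 (6 h), 3 (9 h) and 2 (24 h) and the vehicle mice numbered 2 and 3 (6 h), 1 and 5 (9 h) and 1 (24 h). Slc1a5 (ASCT2), which exchanges glutamine, had 7.48, 7.50, 7.57, 7.69 and 7.52 in APAP livers at 3 h and 8.12, 7.71, 7.76, 8.82 and 8.24 in vehicle livers, without overlap. That difference was -0.58 (SE 0.17, adjusted p = 0.0265), which just missed 1.5-fold. It was called without vehicle replicate 2 (-0.68) or 3 (-0.67) or APAP replicate 4 (-0.61). Vehicle replicate 4, at 8.82, lay farthest from the APAP livers, and without it the difference was not called. That mouse also had Slc36a2 at 7.61, against 6.23 to 6.42 in the other 3 h vehicle mice. Vehicle 9 h replicate 5, at 8.86 for Slc1a5, had Slc36a2 at 7.36. What raised these 2 genes together in these mice was not tested. The APAP effect on Slc1a5 was 0.77 greater at 24 h than at 3 h (SE 0.23, adjusted p = 0.00885). Without APAP 24 h replicates 1 and 3 that change was 0.61 (adjusted p = 0.0522).

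Vehicle livers differed from untreated livers too, in part in the same genes. These comparisons share the vehicle mice with those of APAP. The 4 comparisons with untreated livers share the same 5 untreated mice. Those mice also differ from the vehicle mice in gavage, in feeding and in the time of killing, which cannot be told apart. At 3 h 1 gene was higher and 1 lower, against 1.14% and 0.853% of all genes. At 6 h 1 was higher and none lower, against 1.71% and 1.19%, with 20 of the 59 at an unadjusted p under 0.05, as were 33.6% of all genes. At 9 h 1 was higher and 3 lower, against 2.03% and 1.84%. At 24 h 5 were higher and 3 lower, against 2.31% and 2.09%. In total 8 genes were called, Slc36a1 and Slc7a2 among them, and 6 were not called between APAP and vehicle livers.

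The largest of these changes was in Slc3a1 (rBAT), the heavy chain of the cystine and dibasic amino acid exchanger. At 24 h its values were 10.68, 11.29, 11.38, 10.82 and 10.55 in vehicle livers and 9.10, 10.0035, 9.54, 9.15 and 9.45 in untreated livers, without overlap, a difference of 1.495 (SE 0.19, adjusted p = 6.87e-05) or 2.82-fold. APAP livers at 24 h had 10.98, 12.20, 11.74, 11.34 and 11.20 and overlapped with vehicle livers (0.55, SE 0.23, adjusted p = 0.0926), with a difference of 0.68 and a call without APAP replicate 1. Slc1a4 (ASCT1), an exchanger of serine, alanine and cysteine, was higher in vehicle than in untreated livers at 24 h by 0.70 (SE 0.07, adjusted p = 1.74e-05), Slc6a13 by 0.63 (SE 0.08, adjusted p = 6.62e-05), and Slc6a6 by 0.60 (SE 0.06, adjusted p = 5.81e-06). The groups did not overlap in any of these genes. The nucleobase carrier Slc43a3 was lower by 0.75 at 9 h and 0.82 at 24 h (SE 0.07 and 0.08), and the orphan carrier Slc6a16 by 0.83 and 0.59 (SE 0.08 at both). For Slc43a3 the APAP livers were above vehicle livers at 6 h by 0.56 (SE 0.10, adjusted p = 0.00219), just under 1.5-fold, and the difference was called without APAP replicate 2 (0.63) or 3 (0.61). Several of these calls lay close to 1.5-fold: at 24 h that of Slc6a6 ended without untreated replicate 1 (0.57) or vehicle replicate 3 (0.58), that of Slc6a13 without untreated replicate 4 (0.57) and that of Slc6a16 without untreated replicate 4 (-0.52) or vehicle replicate 2 (-0.57), and at 3 h that of Slc7a2 without untreated replicate 4 (-0.51) or vehicle replicate 2 (-0.55) or 4 (-0.58). At 6 h the vehicle change of Slc7a2 was called without vehicle replicate 3 (-0.65) and that of Slc6a16 without vehicle replicate 5 (-0.61), and at 9 h that of Slc6a9 without untreated replicate 2 (-0.59) or vehicle replicate 1 (-0.61).

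**Figure D4:**
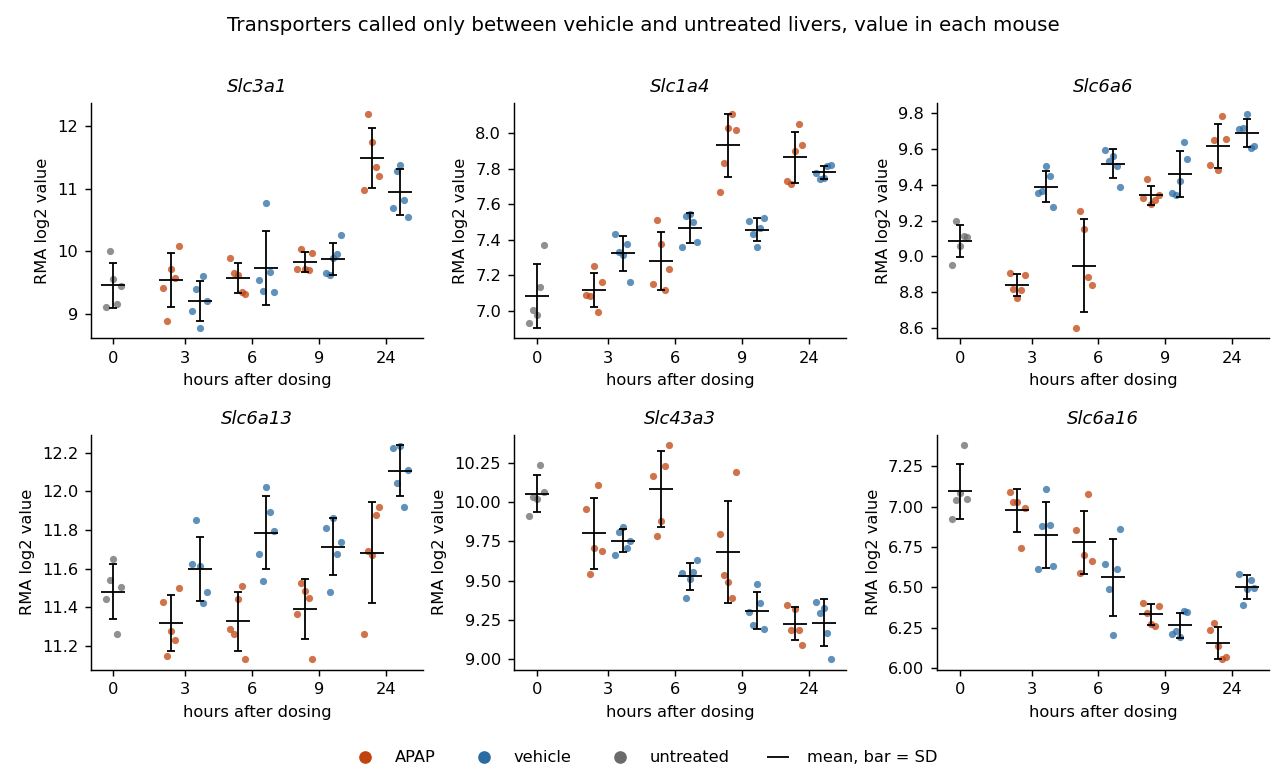
RMA log2 value in each mouse (points) of the 6 genes called between vehicle and untreated livers and not between APAP and vehicle livers, by hours after dosing, with untreated mice at 0 h, APAP to the left of vehicle at each later time, and the group mean and SD as bars (n = 5). Slc3a1 is high in both treatments at 24 h, and Slc43a3 and Slc6a16 are low.

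With the untreated mice in place of the vehicle mice, a comparison chosen after these values had been seen, the calls in APAP livers were 1 higher and none lower at 3 h (1.69% and 1.29% of all genes), 2 and none at 6 h (2.49% and 1.77%), 3 and 2 at 9 h (3.69% and 2.62%), and 6 and 4 at 24 h (4.99% and 3.14%). Slc38a2 was called higher at 3, 6 and 9 h (0.95, 0.82 and 0.74), but against both controls only at 3 h. Slc3a2 was called higher against both controls at 6, 9 and 24 h. Slc7a8 was called higher against both at 24 h (0.90 against untreated livers, SE 0.20, limma adjusted p = 0.00584). Its call against vehicle livers ended when single mice were left out, as given above. Slc1a4 was higher at 9 h (0.85, SE 0.10, adjusted p = 3.68e-05), where its difference from vehicle livers was 0.47 (SE 0.08, adjusted p = 0.000728).

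Promoters are shown for 3 of the genes that were higher in APAP livers, to set their letters beside the time courses. They include each gene called higher that had a match to the motif below, and Slc7a8, also higher but without a match, is left out. The stretches therefore do not show how often the motif goes with a rise. Sequences come from RefSeq on GRCm38.p6, each the 100 bases before an annotated start site, 5′ to 3′ on the strand of the gene. Capitals mark a match to TGACNNNGC, the core of the antioxidant response element that binds NRF2. Slc38a2 is at chr15:96699729-96699828 (- strand), Slc6a9 at chr4:117855447-117855546 (+ strand, 1 of 3 start sites) and Slc3a2 at chr19:8713898-8713997 (- strand).
Slc38a2: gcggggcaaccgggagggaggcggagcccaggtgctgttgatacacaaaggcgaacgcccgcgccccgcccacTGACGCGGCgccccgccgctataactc
Slc6a9: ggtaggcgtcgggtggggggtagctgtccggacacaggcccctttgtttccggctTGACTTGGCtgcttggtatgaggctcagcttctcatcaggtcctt
Slc3a2: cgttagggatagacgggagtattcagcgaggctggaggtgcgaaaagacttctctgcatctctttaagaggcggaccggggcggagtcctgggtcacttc

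Windows from 250 bases before to 50 bases after the start were searched on both strands for this motif and for TGATGNAA, the core of the element through which ATF4 acts. The motifs share their first 3 letters and cannot both match from the same base. RefSeq windows matched 42 of the 59 genes with 63 start sites, and of the 7 called genes all but Slc7a2. TGACNNNGC was found in 12.4% of all 32851 windows and in 12 windows of 10 member genes, among them 1 start site of Slc38a2, 1 of Slc36a1, where it lies after the start, and 2 of Slc6a9. TGATGNAA was found in 3.97% of all windows and in 3 windows of 2 member genes, Slc1a4 and Slc7a7, and in none of the windows of the called genes. A match is a description of letters and says nothing of binding. Bases outside these windows were not searched, so an absence holds for the windows alone.

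Genes of amino acid metabolism were read beside the transporters, in lists chosen with earlier results of these data known. Among all genes, 1.68%, 2.29%, 2.49% and 2.86% were called higher at 3, 6, 9 and 24 h. The shares called lower were 2.34%, 3.03%, 2.05% and 1.82%, and the medians 0.02, 0.01, -0.03 and -0.05. Of 29 genes of the amino acid response and targets of ATF4, 13, 17, 14 and 12 were called higher in APAP livers at the 4 times and none, none, 1 and 2 lower, with medians of 0.54, 0.78, 0.53 and 0.29 on the log2 scale. The 4 with the largest changes were Atf3, a stress-induced transcription factor (6.29 at 6 h, SE 0.09, adjusted p = 1.66e-11), Psat1, an enzyme of serine synthesis (4.14 at 24 h, SE 0.34, adjusted p = 6.89e-05), and the secreted factors Fgf21 (3.34 at 3 h, SE 0.47, adjusted p = 0.000286) and Gdf15 (3.24 at 3 h, SE 0.18, adjusted p = 1.32e-07). Atf4 itself was higher by 0.64 at 3 h and 0.78 at 6 h, and the asparagine synthetase gene Asns by 1.67 at 6 h.

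Of 31 genes of amino acid breakdown and the urea cycle, 2, 1, none and none were called higher and 1, 3, 3 and 7 lower at the 4 times. Their median was 0.02, -0.07, -0.17 and -0.39, beside -0.05 for all genes at 24 h. Among all genes, 1.68% to 2.86% were called higher over the 4 times and 1.82% to 3.03% lower. The same shares stand beside the counts of the 19 carriers given below. Glul, which makes glutamine from glutamate and ammonia around the central vein, averaged 9.96 ± 0.29 in APAP livers and 13.10 ± 0.04 in vehicle livers at 24 h (SD, n = 5 each), a difference of -3.14 (SE 0.12, adjusted p = 3.78e-07). Oat and Prodh, enzymes of ornithine and proline breakdown, were lower at 24 h by 1.71 and 1.65, and Got1, the cytosolic aspartate aminotransferase, was higher at 6 h by 1.09 (SE 0.15, adjusted p = 0.000404). Of 19 amino acid carriers of other families, none, 1, 2 and 1 were called higher and none, none, none and 1 lower. These were the mitochondrial glutamate carrier Slc25a22 (0.91 at 6 h and 0.67 at 9 h, SE 0.14 and 0.12), Slc15a3, a lysosomal carrier of histidine and small peptides (0.59 at 9 h and 1.07 at 24 h, SE 0.17 and 0.31), and the aromatic amino acid carrier Slc16a10 (-0.59 at 24 h, SE 0.09).

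**Figure D5:**
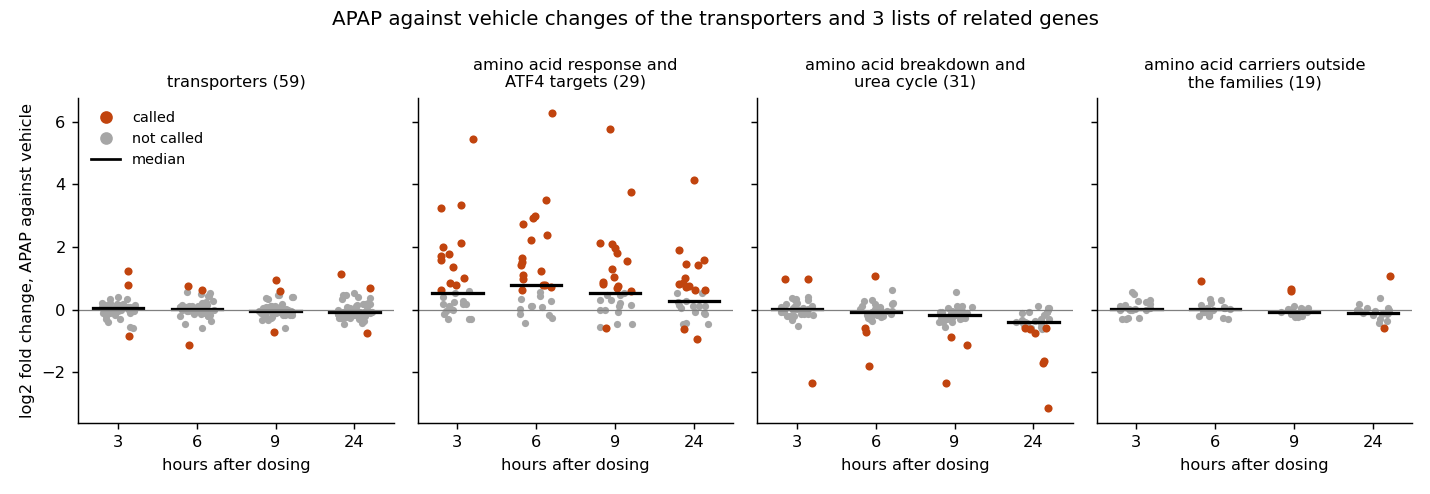
Log2 fold change between APAP and vehicle livers of each gene (points) at 3, 6, 9 and 24 h for the 59 transporters, 29 genes of the amino acid response, 31 genes of amino acid breakdown and the urea cycle and 19 other amino acid carriers; coloured points are called and bars are medians. Medians of the transporters lie between -0.07 and 0.05, and those of the amino acid response between 0.29 and 0.78.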

How the data were processed

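Liver RNA of 45 mice was hybridised to Affymetrix mouse arrays. The log2 values were deposited by the authors after RMA (affy 1.64.0 in R 3.6.1, with probes grouped by Entrez gene) and were used without further normalization or filter. Another table with 45 value columns that no label ties to a mouse was used for gene symbols only. The 59 members and the lists of other genes, markers and motifs were chosen with earlier results of these data known. Genes named were all members called for APAP, up to 8 called for vehicle only, the 6 brightest of the rest, and up to 4 called genes of each other list. Further genes (relatives of called carriers, members just under 1.5-fold, Atf4 and Asns) were chosen after their values were seen. Groups came from the labels.

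Each comparison was tested two-sided (lmFit and eBayes of limma 3.58.1, R 4.3.3) on its 10 arrays, or on 40 arrays in 8 groups for differences between times, with Benjamini-Hochberg adjustment over 18180 genes. The authors used limma 3.42.2. The labels give 5 mice per group, and their number limits the precision. The procedure was tested on simulated data. Alternatives left out each array, added replicate number to the model as a factor, or changed the model, weights, filter, centring or threshold. The statmod package was at version 1.5.0.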

Additional observations from a re-analysis of the deposited data

Results flagged for a closer look

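Among 14 genes called in any comparison, each of 126 groups of 5 mice was examined for a single distant mouse, and 8 had one, where chance alone gives about 1 in 20. In APAP livers these were Slc3a2 in 24 h replicate 2 (10.62), Slc6a16 in 3 h replicate 4 (6.75) and Slc7a8 in 6 h replicate 5 (7.79). In vehicle livers they were Slc1a5 in 9 h replicate 5 (8.86), Slc7a2 in 9 h replicate 2 (10.41), and, both in 6 h replicate 3, Slc3a1 (10.77) and Slc6a9 (9.83). In untreated livers it was Slc6a12 in replicate 1 (9.83).

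The APAP effect differed between times, by a test of the difference itself in limma, in 7 genes between 24 h and 3 h. On the log2 scale the effect was greater at 24 h by 1.06 in Slc36a1, 0.83 in Slc3a2, 0.78 in Slc7a8 and 0.77 in Slc1a5, and the change was -1.07 in Slc38a2, -1.04 in Slc7a2 and -0.65 in Slc6a12. Between 24 h and 9 h it was greater by 0.92 in Slc36a1 and 0.72 in Slc7a8.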

How the results depend on the processing

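The 5 mice per group, and calls that lie near 1.5-fold, limit these results. Counts of members called higher and lower (2 and 1 at each time for APAP against vehicle) moved as follows, and the cause was not tested. Apart from those with untreated mice as the control, the shares of all genes given earlier belong to the main settings. They cannot be set beside the counts of other settings.

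With any 1 mouse left out, APAP against vehicle gave 2 to 2, 1 to 4, 1 to 2 and 1 to 2 higher at 3, 6, 9 and 24 h, and 1 to 2, 1 to 2, 1 to 2 and 1 to 1 lower. Vehicle against untreated gave 1 to 1, 1 to 1, 1 to 1 and 4 to 5 higher and 0 to 1, 0 to 1, 3 to 4 and 2 to 3 lower. The change of the APAP effect gave 4 to 4 higher and 2 to 3 lower for 24 h against 3 h, and 1 to 2 and 0 to 1 for 24 h against 9 h.

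With no minimum change, APAP against vehicle gave 6 and 6, 10 and 5, 7 and 8, and 7 and 11 in order of time, vehicle against untreated 5 and 6, 8 and 7, 6 and 10, and 10 and 8, and the change of effect 10 and 22 against 3 h and 4 and 3 against 9 h. When the fold change was tested against 1.5-fold itself, APAP against vehicle gave 1 and 0 at 3 h, 0 higher at 6 h, 1 and 0 at 9 h and 0 and 0 at 24 h, vehicle against untreated 0 and 0 at 3 h, 0 lower at 9 h and 1 and 0 at 24 h, and the change of effect 0 and 0 against 3 h and 0 higher against 9 h. With array weights, APAP against vehicle gave 2 lower at 3 h, 1 higher at 6 h, 1 higher and 2 lower at 9 h and 1 higher at 24 h, vehicle against untreated 0 lower at 3 h and 1 lower at 6 h, and the change against 9 h 1 higher and 1 lower. An adjusted p under 0.01 left 1 higher at 24 h and 1 higher for the change against 9 h. Re-centred arrays gave 0 lower for vehicle against untreated at 3 h, and leaving out the dimmest 25% of genes gave 1 lower for the change against 9 h.

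Alternatives added after seeing the data were untreated mice as the control, which gave 1 and 0 at 3 h, 0 lower at 6 h, 2 lower at 9 h and 6 and 4 at 24 h, and the loss of APAP 24 h replicates 1 and 3, which gave 1 and 0 at 24 h and 2 higher and 1 higher for the changes against 3 h and 9 h. 1 model over all 45 arrays and trend with robust moderation changed no count by more than 1.5 times.

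Same-numbered mice deviated together with r from -0.27 to 0.40, and at most 2 of 5 pairs passed 0.1. With 5 pairs in each comparison, this cannot show that mice of the same number share nothing else. The replicate block gave 2 and 1 at each time for APAP against vehicle and changed no count of calls, and at most 2 of 5 mice correlated best with their own number.

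Of 483 values of the 7 APAP genes under alternatives, 11 changed sign. Against untreated mice these were Slc6a9 at 3 h (-0.16) and 24 h (-0.29), Slc7a8 at 3 h (0.13) and 9 h (0.33), Slc36a1 at 9 h (0.27) and Slc7a2 at 9 h (-0.34). The others were small values of Slc7a8, at 6 h without APAP replicate 5 (-0.029) and at 9 h without vehicle replicate 3 (0.0049) or 5 (0.011) or APAP replicate 5 (0.024) or with array weights (0.020). With any 1 mouse left out Slc7a8 ranged from -0.029 to 0.17 at 6 h and from -0.087 to 0.024 at 9 h.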
